A study of Mus musculus with 5 samples.

Results

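The genes described here are the translation initiation factors of the mouse, measured by RNA-seq in embryos at the 2-cell stage. They were taken from the deposited expression table by name, as the symbols that begin with Eif1 to Eif6, without pseudogenes, the eIF2 kinases and the maternal genes Eif4e1b and Eif4enif1. The rule found 50 of the 32285 genes in the table. Of these, 49 were placed in role classes of initiation factors by their symbols. Eif1ad and Eif4a3 thus stand in the start codon and helicase classes by name. Eif2c5, which carries the former symbol series of the Argonaute genes, matched the rule by name only and was given no class. Its value was above 0 in 1 library, control library 2, at 0.120.

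Initiation factors bring the small ribosomal subunit, the initiator tRNA and an mRNA together. eIF2 carries the initiator tRNA, eIF2B recharges eIF2 with GTP, eIF3 is the large scaffold on the small subunit, and the eIF4 proteins bind and unwind the capped end of the mRNA. In the early mouse embryo, translation of stored maternal mRNA precedes large-scale transcription of the embryo's own genome, which begins at the 2-cell stage.

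Embryos came from females of 6 to 9 weeks given 10 IU of PMSG and 10 IU of HCG, whose oocytes were fertilised in vitro for about 6 h with sperm of males of 12 to 16 weeks. Zygotes were then kept for 24 h in KSOM medium that held 25 nM PNMC (3 libraries) or an equal volume of the solvent DMSO (2 control libraries). The labels do not spell out PNMC, and give no strain, no number of embryos per library and no word on whether libraries came from separate cultures. The p-values therefore rest on differences between libraries that may be technical replicates. The table holds normalised values whose unit, depth and scaling by gene length are not stated. Differences in table value between genes or gene sets are therefore not read as differences in transcript level. Table values serve to group genes by their spread and to choose genes for description. Sums over gene sets weigh genes with high values most and serve for comparison between libraries.

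The values of each library summed to between 446010 and 454548. All 7 markers of the oocyte and 2-cell embryo were present in every library, with a summed level between 4715 and 5060. Markers of other cells that a collection could carry had small table values. The 8 cumulus markers summed to 3.51 and 5.10 in the controls and to 1.88, 3.12 and 2.07 after PNMC, with Ptx3, Amh and Foxl2 at 0 throughout. The 5 sperm markers summed to 4.17 and 4.28 in the controls and to 5.19, 6.89 and 4.54 after PNMC, almost all of it Prm2, with Prm1 and Tnp2 at 0. Both of these sums separated the groups, and their part in the results below was not tested. The 5 blood markers summed to between 4.57 and 8.43, nearly all of it Hba-a1, and the 4 oviduct markers to between 1.14 and 2.33.

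No initiation factor gene passed the test for a difference between PNMC and control embryos. Of the 50 genes, 47 reached a value of 1 in 2 or more libraries and were tested, and 0 of them had a limma adjusted p under 0.05, as did 0% of all 12734 genes tested. The lowest limma adjusted p among the 47 was 0.967. With limma p-values left unadjusted, 1 member was under 0.05, Eif4h, or 2.13% of those tested, where the share over all genes was 4.99% (1.73% higher and 3.27% lower after PNMC). The log2 change was above 0 in 24 members and below 0 in 23, with a median of 0.02 against -0.05 over all tested genes, and it ran from -0.48 to 0.53. All changes are differences of log2(value + 1), so those of genes with low values are understated. In bulk libraries a smaller share of cells with a transcript and less of it per cell cannot be told apart.

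The 3 PNMC values lay entirely above both control values in 6 members (Eif2a, Eif2d, Eif3i, Eif3k, Eif4a2 and Eif4g3) and entirely below both in 2 (Eif4h and Eif5b). These 8 genes were 17.0% of those tested, where the groups did not overlap in 19.9% of all genes. The shares over all genes were 7.97% for PNMC values above and 11.9% for PNMC values below both controls.

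**Figure D1:**
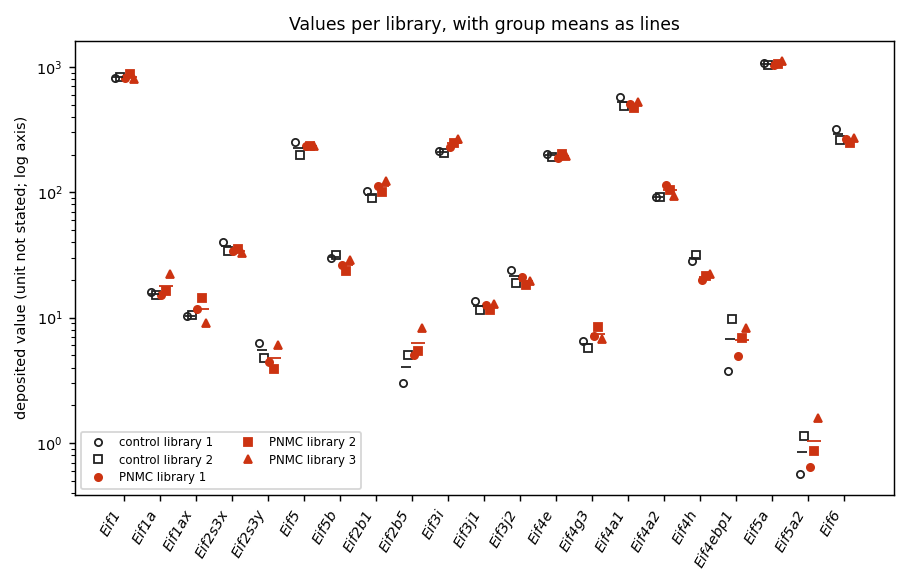
Deposited values (log axis, unit not stated) of the 21 members chosen by a rule for description, one point per library, with group means as horizontal lines. Open black symbols are the 2 control libraries and filled red symbols the 3 PNMC libraries. Eif4h shows both controls, at 28.3 and 31.8, above all PNMC values, while most other genes overlap.

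The intervals show how large a difference these libraries leave possible. The 95% interval of the log2 change stayed between -1 and 1 for 43 of the 47 members, or 91.5%, against 61.4% of all tested genes. The exceptions were Eif2b5, Eif3b, Eif3f and Eif5a2. It stayed between -0.5 and 0.5 for 16 members, or 34.0%, against 12.5% of all tested genes. The spread depended on the table value. At table values from 5 to 20 the median residual SD of log2 values was 0.27 for 18 members and 0.28 for the 3850 genes in that range. From 20 to 100 it was 0.12 for 16 members and 0.20 for 2794 genes, and from 100 upward 0.12 for 12 members and 0.14 for 750 genes. Under 5 there was 1 tested member, Eif5a2, and 5340 of all tested genes, so the shares of intervals above were not matched for table value.

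**Figure D2:**
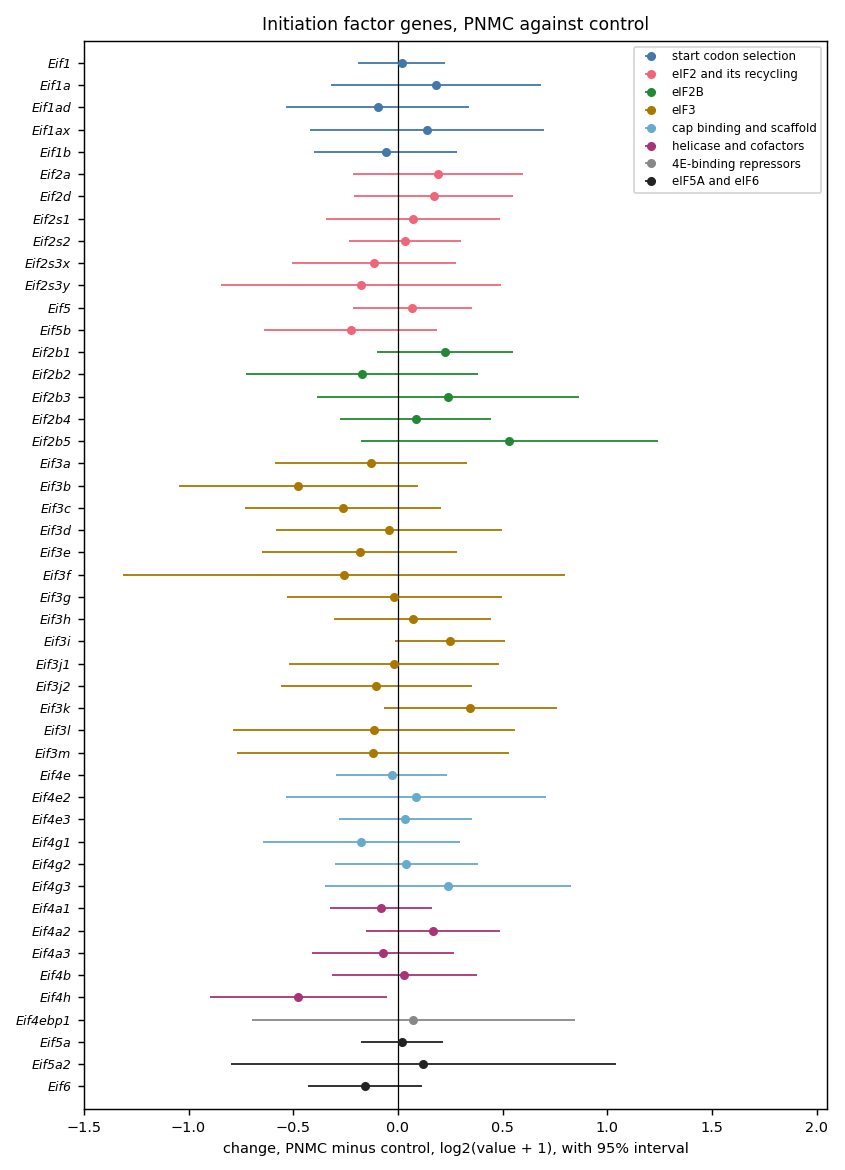
Log2(value + 1) change of PNMC minus control for the 47 tested members, with limma's 95% interval, coloured by role class. The interval leaves out 0 for Eif4h alone, before adjustment for multiple tests, and is widest for Eif3f.

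Among the factors that select the start codon, none of the 5 tested genes passed. Eif1, which keeps the scanning complex open until the start codon is met, had 819 and 829 in the controls and 820, 882 and 803 after PNMC (libraries 1, 2 and 3 in that order, here and below), for a log2 change of 0.02 (95% interval -0.19 to 0.23). The groups overlapped. Of the 50-base stretches of its longest coding transcript, 31.6% also occur in transcripts of other genes, so its reads could be shared. In all 13 members share more than 10% of such stretches, Eif2s2, Eif3h, Eif4a3 and Eif4e3 among them, which makes their values uncertain. Eif1a, known as an early gene of genome activation in mouse embryos, had 16.1 and 15.1 in the controls and 15.2, 16.4 and 22.5 after PNMC. PNMC library 3 alone stood above the rest for Eif1a. Its X-linked paralog Eif1ax had 10.2 and 10.5 in the controls and 11.7, 14.4 and 9.02 after PNMC, so that PNMC library 3 was the lowest for Eif1ax. The limma adjusted p was 0.993 for both Eif1a (log2 change 0.18, SE 0.23) and Eif1ax (log2 change 0.14, SE 0.26). Eif1b, a close relative of Eif1, ranged from 142 to 204 with both extremes in the controls, and Eif1ad, which has an eIF1A-like domain, ranged from 19.2 to 22.3.

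eIF2 is made of an alpha, a beta and a gamma subunit, encoded by Eif2s1, Eif2s2 and the X- and Y-linked pair Eif2s3x and Eif2s3y. Eif2s1, whose protein is the target of the stress kinases, had 34.1 and 35.3 in the controls and 31.1, 43.2 and 36.2 after PNMC. Eif2s2 had 187 and 182 in the controls and 179, 198 and 192 after PNMC. Neither separated the groups. Eif2s3x had 39.9 and 34.1 in the controls and 34.1, 35.3 and 32.7 after PNMC, for a log2 change of -0.11 (95% interval -0.50 to 0.28). Eif2s3y had 6.25 and 4.76 in the controls and 4.40, 3.89 and 6.09 after PNMC, for a log2 change of -0.18 (95% interval -0.84 to 0.49). The Y-linked gene was thus above 0 in every library. The sex of the embryos is not in the labels. The X-linked copy shares 36.2% of its 50-base stretches with other genes, Gm2223 foremost, and Eif2s3y shares 0.0%.

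The mRNAs of the translation machinery often begin with a run of pyrimidines, known as the terminal oligopyrimidine tract. The starts of Eif2s3x and Eif3f are shown because they carry such a run, and that of Eif2s3y as the Y-linked partner of Eif2s3x. Being picked for the run, they do not show how common it is among the members. Each stretch runs from 10 bases before the annotated start to 20 bases from it (RefSeq, GRCm38.p6), and capitals mark a C at the start followed by at least 4 bases that are each C or T.
Eif2s3x: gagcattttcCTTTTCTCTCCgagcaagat
Eif2s3y: ggccacagccacttccttctttcgtgagca
Eif3f: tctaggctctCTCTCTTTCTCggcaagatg
They lie at chrX:94212632-94212661 on the minus strand, at chrY:1010585-1010614 on the plus strand and at chr7:108934405-108934434 on the plus strand. The run is 11 bases long in both Eif2s3x and Eif3f. Eif2s3y is unmarked because its annotated first base is an A, though a run of C and T follows that base directly. RefSeq promoters were at hand for 39 of the 50 members, with 48 starts, and 3 of these starts, or 6.25%, began with such a run, against 2.51% of all 32851 starts and 18.6% of 70 starts of ribosomal protein genes, a class known for the tract. The third was that of Eif2c5. The search reads only the strand of the gene and only the annotated base, and an actual start a few bases away would be missed.

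The class of eIF2, its recycling and related factors held 3 of the members without overlap, Eif2a, Eif2d and Eif5b. These were 37.5% of its 8 tested genes, where the share over all genes was 19.9%. Eif5, which triggers GTP hydrolysis by eIF2, had 252 and 199 in the controls and 234, 234 and 235 after PNMC, so the controls lay on either side of all PNMC values. Eif5b, the GTPase that joins the ribosomal subunits, had 29.8 and 31.6 in the controls and 26.3, 23.7 and 28.6 after PNMC. All Eif5b values after PNMC were below both controls, with a log2 change of -0.23 with an SE of 0.19 (limma adjusted p = 0.993). Eif2a, an alternative carrier of the initiator tRNA, had 28.9 and 30.9 in the controls and 33.1, 31.4 and 38.7 after PNMC. Eif2d, which acts in non-canonical initiation, had 34.8 and 39.8 in the controls and 41.6, 44.7 and 40.03 after PNMC. Both lay above the controls, by a smallest gap of 0.52 for Eif2a and 0.25 for Eif2d in table values. Exons of Eif2a, Eif2d and Eif5b overlap those of a gene on the opposite strand (Serp1, Rassf5 and Rev1), as is so for 11 members in all, and Smart-seq2 libraries keep no strand.

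eIF2B, the exchange factor that recharges eIF2, had 0 of its 5 tested subunits past the adjusted threshold, and 0 at the unadjusted one. The log2 change was above 0 in 4 and below 0 in 1, Eif2b2. Eif2b5, the catalytic epsilon subunit, had 2.99 and 5.06 in the controls and 5.03, 5.39 and 8.34 after PNMC, the highest log2 change of all members at 0.53 (95% interval -0.18 to 1.24, limma adjusted p = 0.993). Control library 2 and PNMC library 1 were nearly level, so the groups overlapped. Without control library 1 the log2 change of Eif2b5 was 0.23, and without control library 2 it was 0.83. Eif2b1, the alpha subunit through which phosphorylated eIF2 is sensed, had 102 and 89.4 in the controls and 112, 101 and 123 after PNMC, for a log2 change of 0.23 (SE 0.15). Eif2b2 was lowest in PNMC library 3 at 12.2 and otherwise ran from 17.8 to 22.1. Eif2b3 ran from 6.25 to 12.1 and Eif2b4 from 59.3 to 78.5, each with overlap.

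eIF3, the scaffold on the small subunit, had 14 tested genes, of which 0 passed the adjusted and 0 the unadjusted limma threshold. Its log2 changes were above 0 in 3 genes (Eif3h, Eif3i and Eif3k) and below 0 in 11, with a median of -0.11. Eif3i, a propeller-shaped subunit of the core, had 212 and 205 in the controls and 231, 246 and 267 after PNMC, for a log2 change of 0.25 with an SE of 0.12 (limma adjusted p = 0.986). Eif3k, a small peripheral subunit, had 23.5 and 23.1 in the controls and 27.3, 32.2 and 30.2 after PNMC, for a log2 change of 0.35 with an SE of 0.19 (limma adjusted p = 0.993). Both genes lay above the controls in 3 of 3 PNMC libraries. After scaling the libraries to a common median, which moved the median change of all genes from -0.05 to 0.03, the unadjusted limma p was 0.0232 for Eif3i and 0.0466 for Eif3k.

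Eif3b, the subunit that holds Eif3i and Eif3g in the core, had 15.0 and 11.0 in the controls and 7.40, 11.0 and 8.80 after PNMC, for a log2 change of -0.47 (95% interval -1.05 to 0.10, limma adjusted p = 0.993). Control library 2 and PNMC library 2 were level for Eif3b, so the groups overlapped. Eif3c had 45.6 and 29.6 in the controls and 33.0, 32.8 and 26.3 after PNMC, and control library 1 alone stood above the rest. Eif3a, the largest core subunit, had 22.7 and 17.9 in the controls and 17.5, 19.1 and 18.5 after PNMC. The same control library was thus the highest for the core genes Eif3a, Eif3b and Eif3c, an observation made after the values were seen. Without control library 2 Eif3c had a log2 change of -0.57 (limma adjusted p = 0.893) and passed the unadjusted threshold.

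Eif3f had the widest spread among the eIF3 genes. It had 4.21 and 6.97 in the controls and 11.4, 3.30 and 1.93 after PNMC, so that the highest value was 5.90 times the lowest and both came from PNMC libraries. Its log2 change was -0.26 (95% interval -1.32 to 0.80). Without PNMC library 1 it was -0.86 (limma adjusted p = 0.9996) and passed the unadjusted threshold. For Eif3l, partner of Eif3k at the periphery, the values were 8.35 and 16.0 in the controls and 9.02, 15.0 and 8.89 after PNMC. For Eif3m they were 6.67 and 9.69 in the controls and 5.65, 9.98 and 6.94 after PNMC, and for Eif3e they were 22.6 and 25.4 in the controls and 18.4, 25.6 and 19.6 after PNMC. Control library 2 and PNMC library 2 were the highest for all 3 of these genes, which were picked out after their values were seen. Eif3m and Eif3e share 37.3% and 22.0% of their 50-base stretches with other genes, and Eif3l shares 0.0%.

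The remaining eIF3 genes overlapped between groups. Eif3d ran from 8.87 to 12.8, Eif3g from 13.9 to 21.9 and Eif3h from 81.4 to 116. PNMC library 3 was the lowest for Eif3d and Eif3g and control library 2 for Eif3h. Eif3j1 and Eif3j2 encode the loosely bound j subunit. Eif3j1 had 13.5 and 11.5 in the controls and 12.5, 11.5 and 12.8 after PNMC, and Eif3j2 had 23.8 and 18.9 in the controls and 21.1, 18.3 and 19.7 after PNMC. Eif3j2 shares 91.8% of its 50-base stretches with other genes, chiefly Eif3j1, so reads of this pair could be split between them and both values are uncertain.

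**Figure D3:**
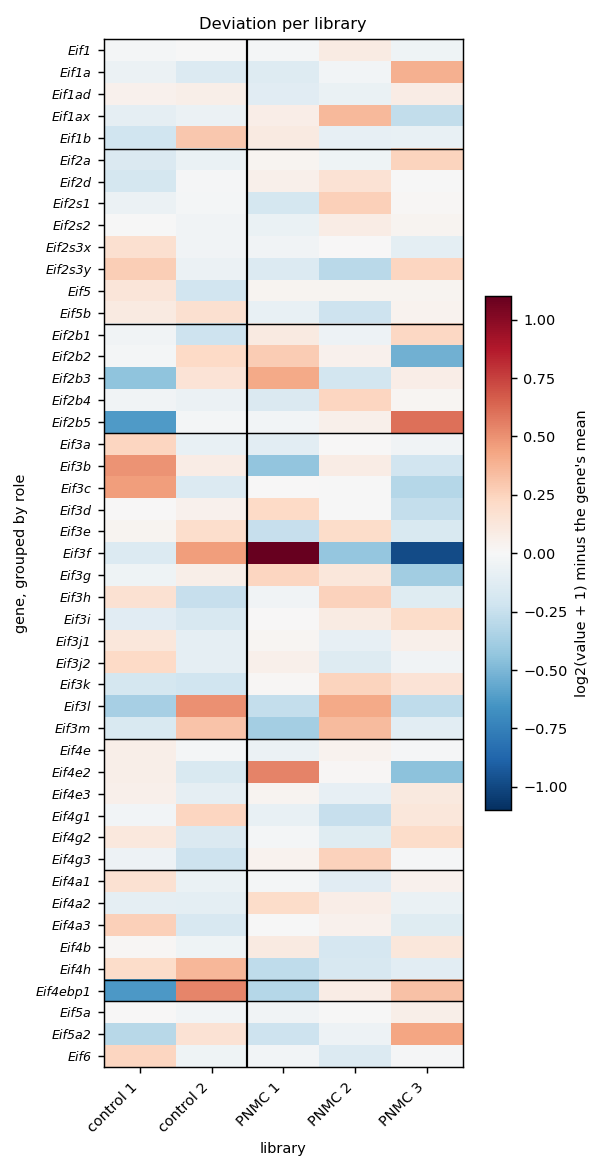
Deviation of log2(value + 1) from each gene's mean over the 5 libraries (colour) for the 47 tested members (rows, grouped by role), with control libraries left of the thick line and PNMC libraries right of it. Eif3f varies most, and within the eIF3 block Eif3l and Eif3m are high in control library 2 and PNMC library 2.

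Cap binding and its scaffold showed the same absence of calls, with 0 of 6 tested genes past the adjusted and 0 past the unadjusted limma threshold. Eif4e, the cap-binding protein, had 203 and 191 in the controls and 186, 200 and 193 after PNMC. Its log2 change was -0.03 (95% interval -0.30 to 0.24), and it became 0.06 when libraries were scaled to a common median. Eif4e3, a relative that also binds the cap, ran from 92.8 to 107, with both groups across that range. Eif4e2, known for repressing translation through the cap, had 13.4 and 11.3 in the controls and 19.0, 12.9 and 9.06 after PNMC, with the extremes both after PNMC.

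Among the scaffolds, Eif4g1 had 19.1 and 23.3 in the controls and 18.5, 16.2 and 21.4 after PNMC, for a log2 change of -0.17 (SE 0.22). Eif4g3 had 6.57 and 5.72 in the controls and 7.10, 8.41 and 6.80 after PNMC, all above the controls, a log2 change of 0.24 with an SE of 0.27 (limma adjusted p = 0.993). Eif4g2, a scaffold that lacks the cap-binding protein's docking site, ran from 92.6 to 119 with overlap. For Eif4g3 the gap between groups was 0.23 in table values, smaller than the SD of either group.

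The helicase group held the one member at the unadjusted threshold. Eif4h, which stimulates the helicase eIF4A, had 28.3 and 31.8 in the controls and 19.9, 21.5 and 22.4 after PNMC. It was lower in 3 of 3 PNMC libraries, with means of 30.04 ± 2.52 (SD, n = 2) in the controls and 21.3 ± 1.26 (SD, n = 3) after PNMC. The log2 change was -0.48 (SE 0.20, 95% interval -0.90 to -0.05), with an unadjusted limma p of 0.0299 and an adjusted p of 0.967. The unadjusted limma p was 0.080 without PNMC library 1 and 0.0686 after median scaling. It was 0.0524 without trend and robust variances, and 0.0640 with the replicate number as a block. The log2 change was -0.39 without control library 2 and ran from -0.56 to -0.39 over all settings tried. None of its 50-base stretches were shared with other genes. Eif4b, the related cofactor, had 75.0 and 71.6 in the controls and 79.4, 65.3 and 80.9 after PNMC, which overlap.

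The helicase itself is encoded by Eif4a1 and Eif4a2. Eif4a1 had 572 and 485 in the controls and 501, 468 and 528 after PNMC, for a log2 change of -0.08 (95% interval -0.32 to 0.17) that became 0.01 after median scaling. Eif4a2 had 92.1 and 91.6 in the controls and 114, 103 and 93.5 after PNMC, for a log2 change of 0.17 with an SE of 0.15 (limma adjusted p = 0.993). All PNMC values of Eif4a2 were above the controls, PNMC library 3 by a narrow margin. Eif4a1 shares 65.3% of its 50-base stretches with other genes and Eif4a2 11.5%. Eif4a3, whose protein works in the exon junction complex, ran from 110 to 150 with both extremes in the controls.

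Of the repressors that compete for eIF4E, only Eif4ebp1 passed the filter on low values. It had 3.79 and 9.77 in the controls and 4.95, 6.85 and 8.25 after PNMC, so the controls lay on either side of the PNMC values. Eif4ebp2 had 0.0768 and 0.230 in the controls and 0.851, 0.163 and 0.473 after PNMC. Eif4ebp3 had 1.88 and 0.933 in the controls and 0.520, 0.667 and 0.402 after PNMC, lower in all PNMC libraries. It was not tested by the main analysis, and 65.5% of its 50-base stretches are shared with an overlapping gene.

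Eif5a, whose protein carries the modified residue hypusine and aids elongation, varied least of the tested members. It had 1063 and 1038 in the controls and 1033, 1059 and 1106 after PNMC, for a log2 change of 0.02 (95% interval -0.17 to 0.21), and its highest value was 1.07 times its lowest. Its paralog Eif5a2 was near the filter limit, with 0.564 and 1.15 in the controls and 0.642, 0.857 and 1.60 after PNMC. Eif6, which keeps the large ribosomal subunit from joining too early, had 320 and 263 in the controls and 267, 245 and 270 after PNMC, for a log2 change of -0.16 (95% interval -0.43 to 0.12). Control library 1 alone stood above the rest for Eif6.

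**Figure D4:**
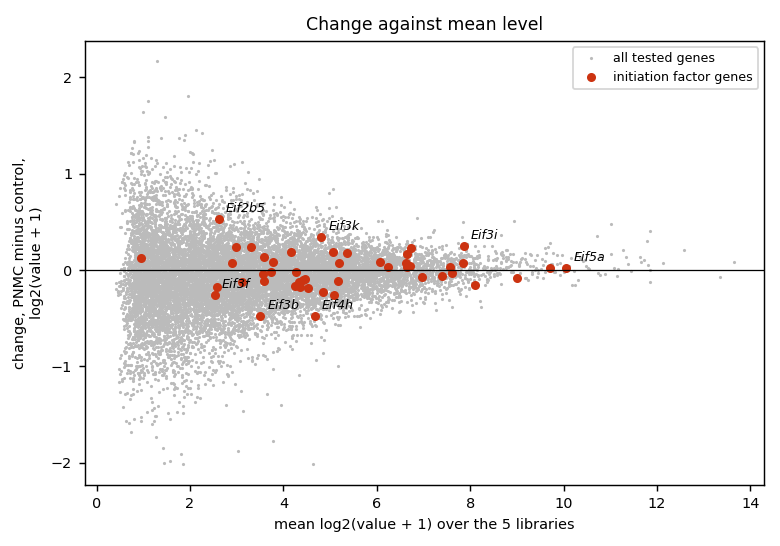
Log2(value + 1) change of PNMC minus control against the mean log2(value + 1) over the 5 libraries, for all 12734 tested genes in grey and the 47 members in red. The members lie between -0.48 and 0.53 and within the cloud of other genes.

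Across libraries the members together took a nearly constant part of the table. Their summed values were 1.15% and 1.08% of the library sum in the controls and 1.11%, 1.11% and 1.11% after PNMC. The 76 ribosomal protein genes took 1.05% and 0.979% in the controls and 0.910%, 1.11% and 0.774% after PNMC. PNMC library 3 was the lowest for ribosomal protein genes but not for the initiation factors. Of those 76 genes, 0 passed the limma adjusted threshold and 7 were under 0.05 unadjusted, all lower after PNMC. Over all 12734 tested genes, 416 were lower at that threshold, or 3.27%. The log2 change was below 0 in 55 ribosomal protein genes and above 0 in 21, with a median of -0.15. Over all tested genes it was below 0 in 7247 and above 0 in 5487, with a median of -0.05. The groups did not overlap in 15.8% of the ribosomal protein genes, against 19.9% of all genes. Their median deviation from each gene's mean log2 value was 0.13 and 0.08 in the controls and -0.10, 0.24 and -0.28 after PNMC. PNMC library 2 was thus the highest. The highest value of a member was less than 1.5 times its lowest in 32 of the 47 and less than 2 times in 41. The median ratio was 1.39, against 1.85 over all tested genes. These ratios were not matched for table value. Of the 12734 tested genes, 5340 had mean values under 5, as did 1 of the 47 members.

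In 8 further lists of the translation pathway, chosen by role and without the ribosomal proteins, 0 of 53 tested genes had a limma adjusted p under 0.05 and 1, Dhps, was under 0.05 unadjusted, where the share over all genes was 4.99%. Among 8 tested genes of eIF2 phosphorylation and its reversal, the median log2 change was -0.13. Eif2ak3, the eIF2 kinase PERK of the endoplasmic reticulum, had 8.08 and 7.75 in the controls and 4.91, 7.11 and 5.61 after PNMC, below both controls but with a limma adjusted p of 0.993. The maternal cap-binding relative Eif4e1b had 581 and 717 in the controls and 799, 629 and 737 after PNMC, with overlap. Its partner Eif4enif1, a transporter and repressor of eIF4E, had 117 and 123 in the controls and 155, 129 and 140 after PNMC, above both controls (log2 change 0.23, SE 0.14, limma adjusted p = 0.993).

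The 8 poly(A)-binding genes had a median log2 change of -0.04, and the smallest p was that of Pabpn1l, a poly(A)-binding protein of oocytes, with 10.8 and 21.0 in the controls and 17.4, 25.9 and 25.2 after PNMC. Among 12 other helpers of initiation the median was 0.06, and the smallest p was that of Mknk1, a kinase of eIF4E, with 29.2 and 25.0 in the controls and 21.6, 21.6 and 19.7 after PNMC. Mknk1 lay below the controls in 3 of 3 PNMC libraries and Pabpn1l overlapped. Among 8 elongation factor genes the median was 0.20, with Eef1d, of the complex that recharges eEF1A, at 37.7 and 26.4 in the controls and 47.8, 43.0 and 37.4 after PNMC. Eef1d overlapped at its lowest PNMC value. The 5 termination and ribosome rescue genes had a median of -0.19, and among them the rescue factor Pelo had 11.7 and 11.9 in the controls and 9.06, 11.7 and 8.44 after PNMC. Of 8 mitochondrial translation genes, with a median of -0.12, the initiation factor Mtif2 had 4.90 and 5.97 in the controls and 2.01, 3.52 and 4.34 after PNMC. All Mtif2 values after PNMC were below the controls, with a log2 change of -0.62 with an SE of 0.34 (limma adjusted p = 0.993). The groups did not overlap in 1 of 8 eIF2 phosphorylation genes, 1 of 2 maternal cap-binding genes and 1 of 8 poly(A)-binding genes. The same held for 2 of 12 helpers, 1 of 8 elongation, 0 of 5 termination, 0 of 2 hypusine and 3 of 8 mitochondrial genes. The share over all genes was 19.9%.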

How the data were processed

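Smart-seq2 RNA-seq libraries of 3 PNMC and 2 control samples were analysed. The authors deposited 1 table of normalised signal per gene symbol. Its unit and depth are not stated. Per the submitters' processing notes, Trimmomatic, HISAT2 2.0.5, HTSeq, DESeq2 1.16.1 and GRCm39 were used; the annotation and the step behind the values were not given in the sources used here. Low values showed no common step, so no counting interval is given.

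The filter kept genes that reached 1 in 2 or more libraries. Log2(value + 1) was compared between groups with limma 3.58.1 (R 4.3.3, trend, robust variances, no covariate). Benjamini-Hochberg adjustment was over all 12734 genes at 0.05. The procedure was first tried on simulated data. That trial required recovery only of changes far larger than those of the members, so it does not show power for changes of their size. The members and lists were chosen with earlier results of these data known. Genes were given in most detail by a rule: per role class, the highest table value and the smallest p, members at an unadjusted p under 0.05, and paralog pairs, and in each list the smallest p. Others were described by choice. Shared 50-base stretches and exon overlaps came from GENCODE M21 and starts from RefSeq, both on GRCm38. Alternatives were another pseudocount (0.1), other filters, quantile and median scaling, plain limma variances, a replicate block and each library left out.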

Additional observations from a re-analysis of the deposited data

How the results depend on the processing

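Under all 12 alternatives 0 initiation factor genes had a limma adjusted p under 0.05, and the lowest was 0.829, for Eif4h without PNMC library 2. The count at the unadjusted threshold was 1 with each library left out in turn, but the gene was Eif3c without control library 2 and Eif3f without PNMC library 1. The count was 2 after median scaling (Eif3i and Eif3k, not Eif4h), 0 without trend and robust variances, and 0 under the replicate block. Over all tested genes, the share under 0.05 unadjusted was 5.19%, 5.85% and 4.27% in these settings, in that order. That share was 4.79%, 6.005% and 4.11% without PNMC library 1, 2 and 3. The changes in which member was called are not read as results about these genes. The median log2 change of the members was 0.10 after median scaling, -0.016 with a minimum of 10 and -0.0069 under the replicate block, and ran from -0.027 to 0.039 with 1 library left out. Library numbers are not said to pair samples, the correlations of same-numbered deviations were -0.0585 and -0.0433, and in the block fit PNMC library 3 adds nothing to the change.

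Of 245 values for named genes under alternatives, 225 kept their direction and 20, in 10 genes near 0, changed it. Part of this count was fixed in advance. Without a filter, with a minimum of 10 and with plain limma variances, the log2 changes equalled the main ones and could not reverse. The replicate block repeated the changes found without the PNMC library that has no same-numbered control, for genes tested in both. The 225 thus overstates how many separate checks kept their direction. Under quantile normalisation Eif1 was at -0.056 and Eif3j1 at 0.041. After median scaling Eif3j1 was at 0.063, Eif4a1 at 0.0068 and Eif4e at 0.056. Under the block Eif4ebp1 was at -0.071, Eif5a at -0.0069 and Eif5a2 at -0.069. With 1 library left out, the log2 change ran from -0.13 to 0.093 for Eif3j1, from -0.26 to 0.055 for Eif3j2, from -0.20 to 0.039 for Eif4a1, from -0.074 to 0.014 for Eif4e, from -0.51 to 0.66 for Eif4ebp1, from -0.11 to 0.26 for Eif5a2, from -0.10 to 0.24 for Eif5, from -0.022 to 0.046 for Eif1, from -0.013 to 0.30 for Eif1ax and from -0.0069 to 0.042 for Eif5a. The cause was not tested. With 1 control library left, its spread is assumed to be that of the PNMC libraries.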

Other observations

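Hypusine on eIF5A is made by a pair of enzymes. Dhps, which starts the modification, had 16.6 and 13.7 in the controls and 6.69, 15.0 and 6.70 after PNMC, for a log2 change of -0.71 with an SE of 0.32 (limma adjusted p = 0.986), past the unadjusted threshold only. Dohh, which completes it, had 26.8 and 15.3 in the controls and 9.73, 25.7 and 13.0 after PNMC. PNMC library 2 stood with the controls for both enzymes, while PNMC libraries 1 and 3 were lower, an observation made after the values were seen. For Dohh, control library 2 at 15.3 was near PNMC library 3 at 13.0. The split was not particular to this pair. The ribosomal protein genes had median deviations of 0.13 and 0.08 in the controls and -0.10, 0.24 and -0.28 after PNMC. Eif5a itself stayed between 1033 and 1106 in these libraries.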
